A study of Rattus norvegicus with 20 samples.

Results

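The ATP-binding cassette (ABC) transporter genes were followed across primary cultures of neonatal rat heart exposed to diclofenac, a cyclooxygenase inhibitor of the non-steroidal anti-inflammatory class. Members were the non-control probes whose gene name in the array files begins with Abc, a subfamily letter from a to g and a number. This gave 58 probes for 46 genes, of 41012 probes and 35537 gene names on the array. A probe was used when 1 group or more had it well above background, as called by the scanner software, on all of its arrays; this left 53 member probes and 44 genes, among 30504 genes in all. Subfamily A had 13 of 14 genes measured, B 8 of 9, C 10 of 10, D 3 of 3, E 1 of 1, F 3 of 3 and G 6 of 6. The 2 unmeasured genes were Abca6, well above background on 0 of 20 arrays, and Abcb1a, well above background on 4. Because a gene could pass through 1 bright group alone, the 44 are the measured members and not the whole family. Genes of the family that carry other names in the files (Tap1, Tap2 and Cftr) are outside the rule.

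Heart tissue from newborn rats was cultured for a day in DMEM medium before treatment, and the labels name the cells as cardiomyocytes. Untreated cultures had 2 arrays, with no time in culture given. Diclofenac was given at 3 strengths, a reference concentration (called concentration 1) and 1/5 and 1/25 of it, and each strength had 3 arrays at 6 h and 3 at 24 h. The molar value of the reference concentration is not given, nor is there an untreated group at each time, so against the untreated arrays the drug and the culture time cannot be told apart. The labels do not say whether replicates were separate cultures, so the spread behind each p-value is that between these arrays and may be technical. Of 12 cardiomyocyte markers, 12 were measured and 11 were well above background on all 20 arrays; markers of fibroblasts (9 of 9 measured), smooth muscle and pericytes (8 of 9) and endothelium (8 of 9) were measured as well, and in bulk RNA fewer cells of a type and less RNA per cell cannot be told apart.

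ABC proteins use ATP to move lipids, bile salts, drug conjugates, peptides, haem and metal cofactors across membranes. The drug exporters belong to subfamilies B, C and G: Abcb1a and Abcb1b encode the rodent P-glycoproteins, the Abcc genes listed here the multidrug resistance-associated proteins, which export organic anions and glucuronide or glutathione conjugates, and Abcg2 the breast cancer resistance protein. Diclofenac is cleared in liver largely through oxidation and glucuronidation, and its conjugates are carried by exporters of this group. In heart, Abcc9 encodes the sulfonylurea receptor that regulates the ventricular ATP-sensitive potassium channel, and Abcb8 and Abcb10 encode carriers of the mitochondrial inner membrane. Abce1 and the Abcf genes encode ATPases of the ribosome and translation, with no membrane domain.

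Each probe is a 60-base oligonucleotide, and these are the probes of 5 of the 9 members that passed a test below, with the dimmer of the 2 Abcc3 probes, because the results rest on single probes of this kind. All letters are 5′ to 3′ in lower case, as no motif is marked.
Abcb1b: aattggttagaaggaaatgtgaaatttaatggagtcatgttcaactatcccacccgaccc
Abcb4: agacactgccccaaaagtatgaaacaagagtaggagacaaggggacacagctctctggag
Abcb8: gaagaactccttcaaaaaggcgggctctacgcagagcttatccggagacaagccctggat
Abcf2: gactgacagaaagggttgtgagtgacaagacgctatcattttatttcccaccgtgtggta
Abcf3: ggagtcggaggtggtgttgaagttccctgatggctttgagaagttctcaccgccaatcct
Abcc3, dimmer probe: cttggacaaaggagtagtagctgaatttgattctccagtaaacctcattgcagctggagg
In the array files' build rn3 they lie at chr4:21899463-21899522 (plus strand) for Abcb1b, chr4:22000547-22003326 (plus strand) for Abcb4, chr4:6133988-6134047 (minus strand) for Abcb8, chr4:5983617-5983754 (plus strand) for Abcf2, chr11:82630103-82630239 (minus strand) for Abcf3 and chr10:83001517-83001576 (minus strand) for Abcc3. The 60 bases of the Abcb4, Abcf2 and Abcf3 probes span 2780, 138 and 137 bases of genome, so each joins sequence from both sides of a gap, and 18 of the 58 member probes do so. No annotation of that build was used here, so exon and untranslated positions are not given. Abcb1b and Abcb4 are neighbours of Abcb1a on chromosome 4, and their products are close relatives. Over all 58 probes, the longest run shared by probes of different members was 11 of 60 bases, on either strand.

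Signals are given as log2 of the scanner's processed intensity minus the array's 75th percentile, so 0 is that percentile and levels of different probes are not set against each other. Spots well above background made up 64.1 to 88.2% of those on an array. The 4 lowest shares were 64.1% and 76.5% on arrays 3 and 1 of 1/5 for 24 h, 72.4% on array 1 of 1/25 for 24 h and 75.1% on array 2 of 1/25 for 6 h. These are called the low-signal arrays below, by that share and not by brightness. The 75th percentile of processed signal ran from 3165 on array 3 of 1/5 for 24 h to 21937. Array 2 of 1/25 for 6 h stood at 15475, beside 15473 on untreated array 2. The arrays were spread over 6 slides. Untreated arrays shared slide 1 with 2 arrays of concentration 1 for 6 h. The other 6 h arrays lay on slides 2, 3 and 4, and the 24 h arrays on slides 4, 5 and 6. Slide 4 held 1 array at 6 h, of 1/25, beside the 3 of concentration 1 for 24 h. Time and slide therefore cannot be told apart for the most part. Slides 1 and 2 were scanned on day 1, slides 3 to 5 on day 2 and slide 6 on day 3. Day 1 held the untreated arrays and those of 1 and 1/5 for 6 h. For all other arrays, a difference from untreated arrays cannot be told apart from one of slide or scan day. Of the 44 genes, 33 were well above background on every array. Abca7 was saturated on 20 arrays and Abcd3 and Abce1 on 19 each, so their changes are not described.

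**Figure D1:**
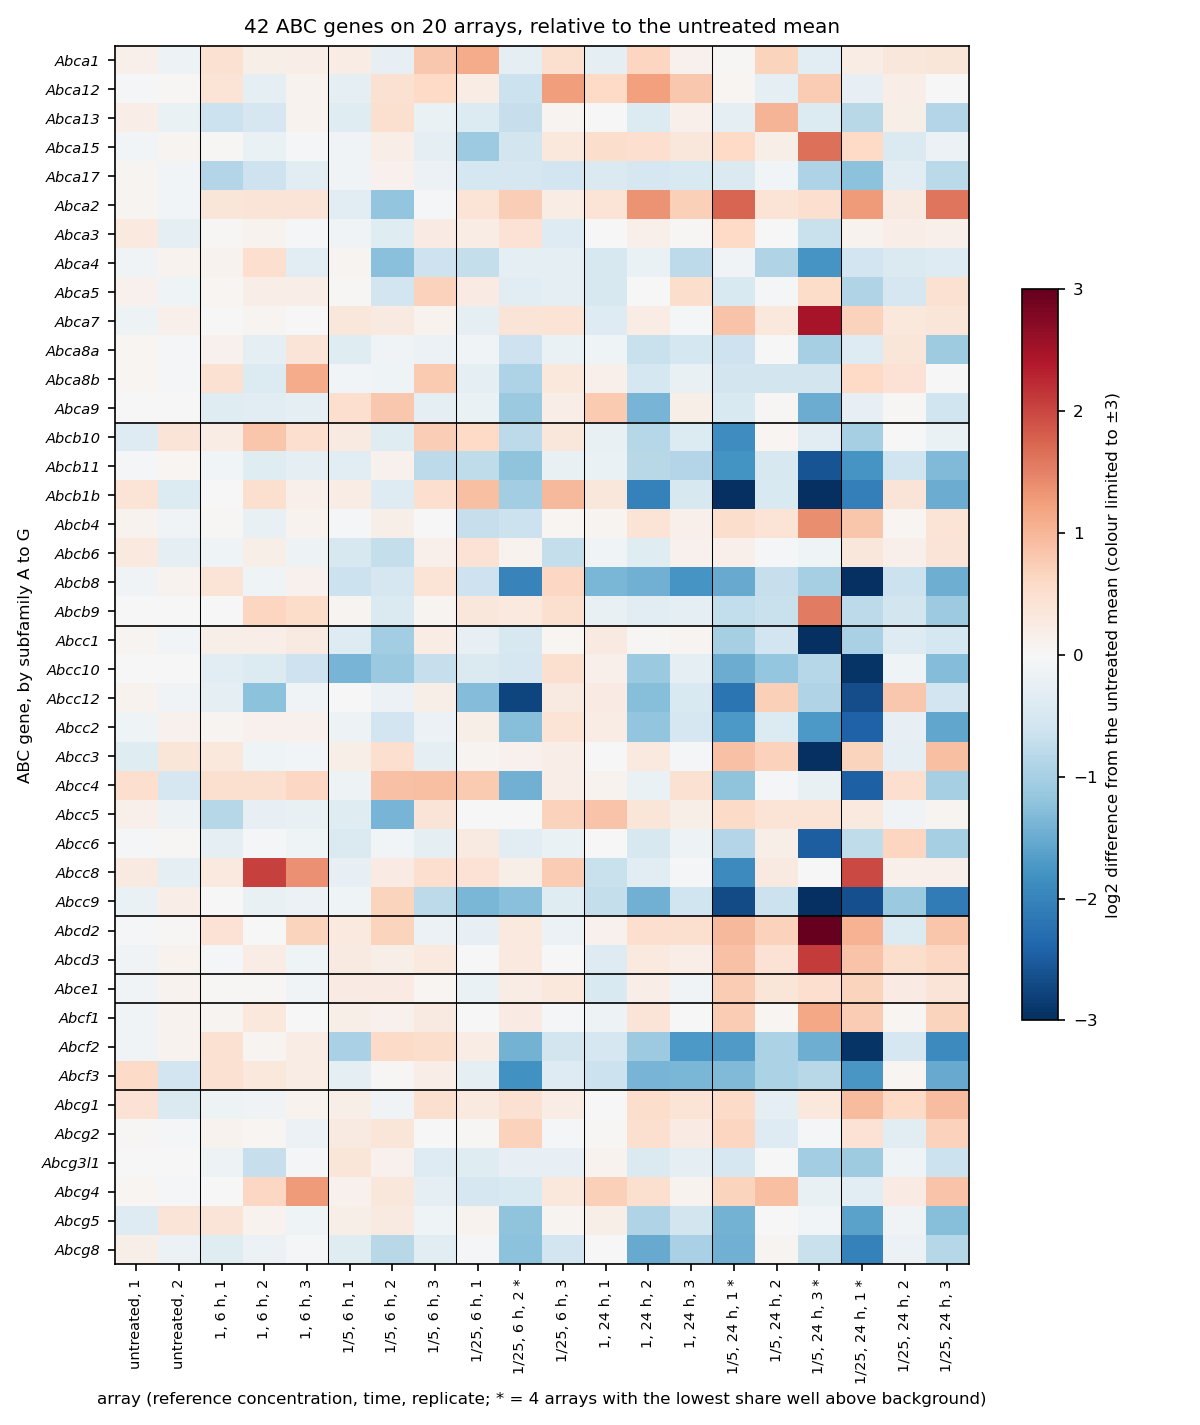
Heat map of 42 of the 44 measured ABC genes (rows, by subfamily A to G) on the 20 arrays (columns, by group and replicate), coloured by the log2 difference from the mean of the 2 untreated arrays, with colour limited to 3 in each direction. Colours are mostly pale through the 6 h groups apart from array 2 of 1/25, and the deepest colours lie on the starred low-signal arrays at 24 h. Single genes stand out on other 6 h arrays, such as Abcc8 on arrays 2 and 3 of concentration 1. It read -3.89 and -4.57 there, against an untreated mean of -5.94.

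Against untreated cultures, no ABC gene passed the threshold in any of the 6 treated groups or in their mean (limma, Benjamini-Hochberg adjusted p over all genes). The question of this comparison is whether diclofenac moved transcripts in these cells. At 6 h, 0 of 44 members passed at concentration 1, 1/5 and 1/25, where 0.00656%, 0% and 0% of all genes did, and 0, 0 and 0 members had an unadjusted p under 0.05, beside 1.49%, 1.09% and 1.16% of all genes. The members' median log2 changes were 0.05, 0.04 and -0.13, beside 0.01, 0.02 and -0.07 for all genes. At 24 h, 0 of 44 passed at each concentration, beside 0.00328% of all genes at 1, 0.184% at 1/5 and 0.00328% at 1/25. Unadjusted p was under 0.05 for 2 members at concentration 1 (4.55% of members, 4.56% of all genes), 10 at 1/5 (22.7% and 30.4%) and 10 at 1/25 (22.7% and 13.4%). Of the 10 at 1/5, 4 were higher and 6 lower, and of the 10 at 1/25, 2 were higher and 8 lower. The members' medians at 24 h were -0.13, -0.49 and -0.36, beside -0.10, -0.12 and -0.13 for all genes. For the mean of the 6 treated groups, 0 members passed (0% of all genes), 0 had an unadjusted p under 0.05 (2.18% of all genes), and 0 lay wholly above or below the untreated arrays, against 0.4% of all genes. With slide as a random block 14 members passed at 1/5 for 24 h, and with array weights 1 passed at 1/5 for 6 h, 9 at concentration 1 for 24 h and 30 at 1/25 for 24 h. Without array 2 of 1/5 at 24 h 11 members passed in that group, and without array 2 of 1/25 at 24 h 2 passed in that one. The share of all genes under these alternatives is not given here, so their counts are no result about the family. The median SE of a change against untreated cultures was 0.55 over all genes.

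The members farthest from 0 are given as values, since none passed. At concentration 1 for 6 h the highest was Abcc8, the sulfonylurea receptor of pancreatic beta cells, at 1.24 ± 0.65 (SE). The lowest there were Abca17 at -0.60 ± 0.33 and Abcc12 at -0.54 ± 0.95. At 1/5 for 6 h Abcc4, an exporter of cyclic nucleotides and prostaglandins, stood at 0.55 ± 0.72 and Abca9 at 0.33 ± 0.58, with Abcc10 at -1.07 ± 0.59 and Abca4, the retinoid flippase of photoreceptors, at -0.60 ± 0.45. The lowest of the 1/25 group at 6 h were Abcc12 at -1.26 ± 0.95 and Abcc9 at -0.998 ± 0.804; without the low-signal array of that group they stood at -0.52 ± 0.61 and -0.87 ± 0.50. After 24 h at concentration 1, Abca12, a keratinocyte lipid transporter, stood at 0.88 ± 0.48 and Abca2, a lysosomal transporter of neural tissue, at 0.83 ± 0.47, with Abcb8 at -1.53 ± 0.67 and Abcf3 at -1.14 ± 0.54.

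At 1/5 for 24 h, the group with 2 low-signal arrays, the lowest changes were those of Abcb1b at -3.04 ± 1.02 (SE) and Abcc9 at -2.70 ± 0.80 (limma adjusted p = 0.129 each). Highest there was Abcd2, a peroxisomal fatty acid importer, at 1.76 ± 0.65; the next was the saturated Abca7. Without the 4 low-signal arrays, which leaves 1 array in this group that is assumed to vary like the others, the changes were -0.45 ± 0.86 for Abcb1b, -0.65 ± 0.61 for Abcc9 and 0.69 ± 0.48 for Abcd2 (limma adjusted p from 0.734 to 0.891). The 1/25 group at 24 h had Abca2 at 1.05 ± 0.47 and Abcg1, a cholesterol exporter, at 0.83 ± 0.35, and Abcc9 at -1.96 ± 0.80 and Abcf2 at -1.78 ± 0.64. Without its low-signal array these were 0.93 ± 0.45, 0.76 ± 0.32, -1.61 ± 0.50 and -1.21 ± 0.58. Over the mean of the treated groups, Abcd2 stood at 0.53 ± 0.53 and Abca2 at 0.51 ± 0.39, and Abcc9 at -1.13 ± 0.66 and Abcb8 at -0.85 ± 0.55. Without the 4 arrays these were 0.28 ± 0.30, 0.39 ± 0.34, -0.71 ± 0.38 and -0.56 ± 0.34.

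At 24 h against 6 h, over the 3 concentrations, 9 of 44 ABC genes passed the threshold (limma adjusted p), with 2 higher and 7 lower at 24 h. That is 20.5% of the members beside 21% of all genes, so the share is near the background and is no result about the family. Unadjusted p was under 0.05 for 16 members (36.4%), beside 41.1% of all genes. Higher were Abca2 at 0.81 ± 0.25 (SE, adjusted p = 0.0314) and Abcb4 at 0.61 ± 0.19 (adjusted p = 0.0320). Among those lower were Abcb1b at -1.80 ± 0.53 (adjusted p = 0.0279), Abcc9 at -1.45 ± 0.42 (0.0263), Abcf2 at -1.32 ± 0.33 (0.0165), Abcb8 at -1.19 ± 0.35 (0.0280), Abcc2 at -0.92 ± 0.32 (0.0475) and Abcf3 at -0.91 ± 0.28 (0.0333). The lowest 2 of all 44 were Abcb1b and Abcc9, and the highest were Abca2 and Abcd2, at 0.68 ± 0.33 (adjusted p = 0.136); without the low-signal arrays Abcd2 stood at 0.29 ± 0.23 (0.389). The comparison set 9 arrays against 9, and 0 of 44 members had 24 h arrays wholly above or below the 6 h arrays, beside 0.591% of all genes.

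The split of these calls into higher and lower depended on the scaling. The median change of all genes at 24 h against 6 h was -0.09 with the 75th percentile, 0.02 with quantile normalization and 0.30 with scaling to the array median. Of the members called, 6 of 10 were higher with quantile normalization, 11 of 15 with median scaling and 12 of 16 in the deposited ratios, against 2 of 9 here. Of all genes, 21.7%, 36.3% and 36.4% passed in those settings, beside 21% here. Each of the 9 genes kept its sign under every alternative that was run. Abcf2 was the 1 member of the 9 past the threshold in all of its 34 alternatives. Leaving out the 4 low-signal arrays leaves 1 array at 1/5 for 24 h, so changes alone are given here. They were -1.05 for Abcb8, -1.13 for Abcf2, -0.94 for Abcf3, -0.997 for Abcb1b and -0.70 for Abcc9. Those of Abcc2, Abca2 and Abcb4 were -0.64, 0.66 and 0.38. Leaving out 1 array moved the count of 9 to 4 without array 1, 2 or 3 of concentration 1 at 6 h, 5 without array 3 of 1/5 at 6 h, and 3 and 4 without arrays 1 and 3 of 1/25 at 6 h. At 24 h it moved to 2 and 5 without arrays 2 and 3 of concentration 1, to 4 and 16 without arrays 1 and 2 of 1/5, and to 2, 14 and 3 without arrays 1, 2 and 3 of 1/25. Abcf2 passed in each of these 20 fits. The share of all genes moved with these counts. It ran from 7.5% without array 2 of concentration 1 at 24 h to 44.1% without array 2 of 1/5 at 24 h. The swings are therefore no result about the family. By subfamily, the medians at 24 h against 6 h were -0.12 in A (13 genes), -0.76 in B (8), -0.50 in C (10), 0.50 in D (3), -0.91 in F (3) and -0.10 in G (6), and -0.23 over all 44.

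**Figure D2:**
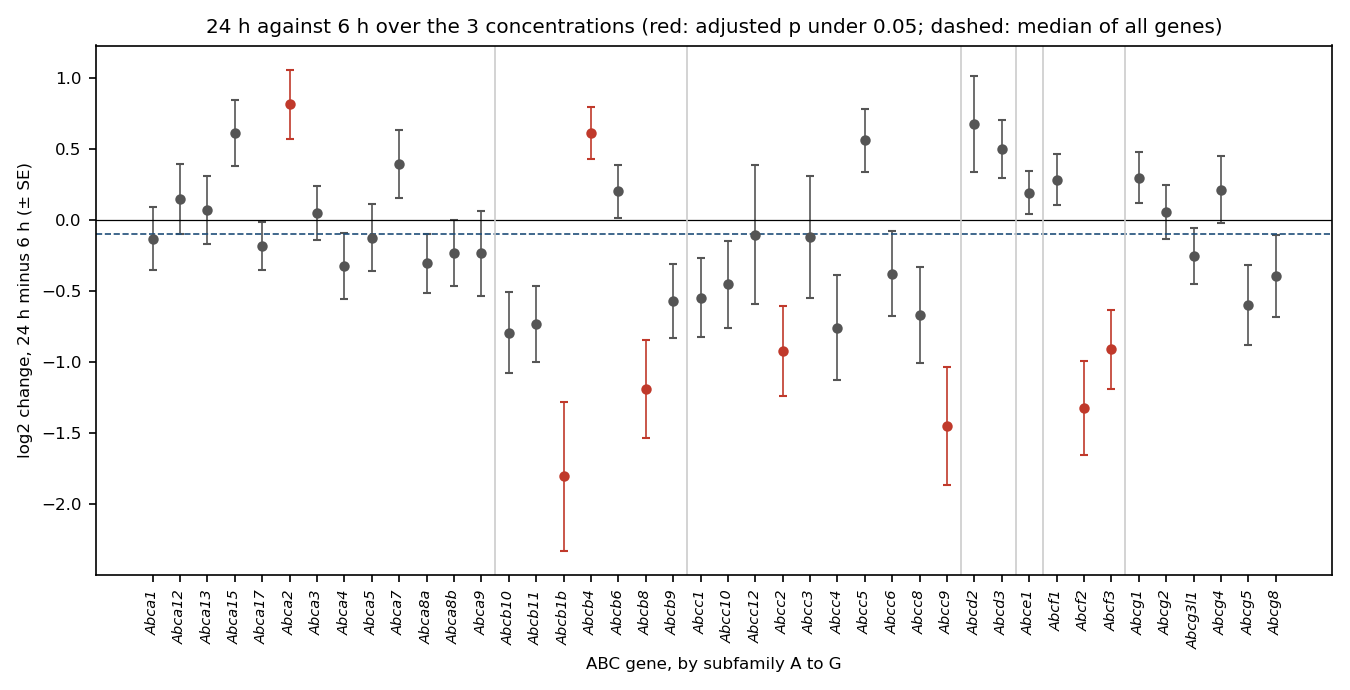
Log2 change at 24 h against 6 h over the 3 concentrations (points, bars are SE) for 42 of the 44 ABC genes by subfamily A to G, with members past adjusted p 0.05 in red and the median of all genes, -0.09, as a dashed line. The 6 red points below the line belong to subfamilies B, C and F, and the 2 above it are Abca2 and Abcb4.

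**Figure D3:**
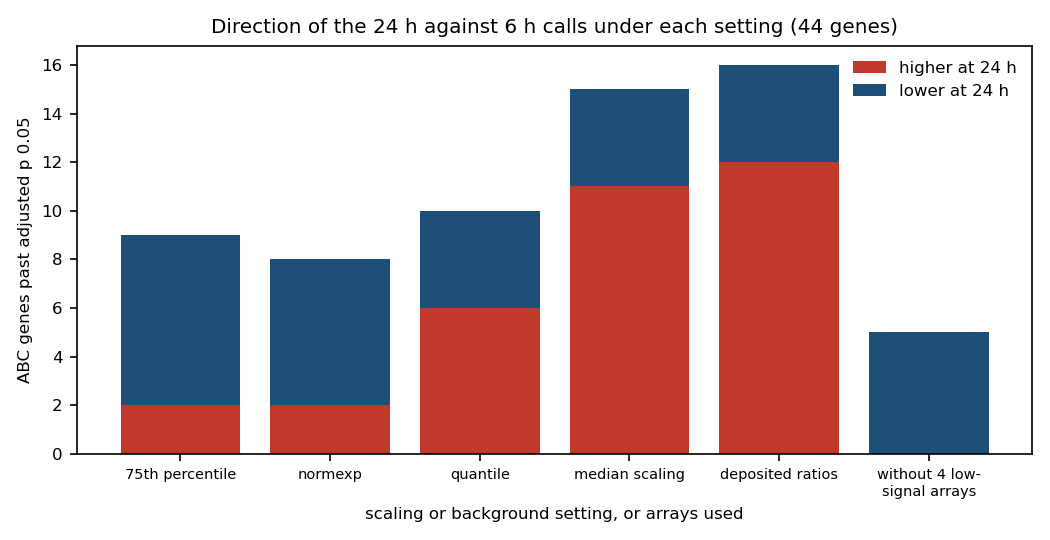
Number of ABC genes past adjusted p 0.05 at 24 h against 6 h (bars, red for higher and blue for lower at 24 h) under 5 scaling or background settings and without the 4 low-signal arrays. The split runs from 2 higher of 9 with the 75th percentile to 12 higher of 16 in the deposited ratios.

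Among the drug exporters, 8 of 9 genes were measured. At 24 h against 6 h 2 of the 8 passed, Abcb1b and Abcc2, both lower. Of all genes 21% passed, so this count is no result about the exporters as a set. Abcb1b read -1.85 and -2.66 on the untreated arrays, and after 6 h -2.26, -1.77 and -2.10 at concentration 1, -2.03, -2.63 and -1.75 at 1/5 and -1.36, -3.30 and -1.27 at 1/25. At 24 h Abcb1b read -1.90, -4.29 and -2.73 at concentration 1, -6.59, -2.71 and -6.57 at 1/5 and -4.31, -1.87 and -3.74 at 1/25. All 9 arrays at 6 h lay between -3.30 and -1.27, while the 24 h arrays ran from -6.59 to -1.87. Both values below -6 fell on the low-signal arrays of 1/5, where the probe was not well above background, and array 2 of that group, at -2.71, lay among the 6 h values. Without the 4 low-signal arrays the change was -0.997 ± 0.403 (SE, limma adjusted p = 0.108), and the part of array signal in the result was not tested. Leaving out 1 array ended the call for 8 of the 20 arrays, with an adjusted p of up to 0.0689.

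Abcc2 encodes the apical exporter of bilirubin and drug conjugates. Abcc2 read -0.07 and 0.20 on the untreated arrays, and after 6 h 0.13, 0.19 and 0.20 at concentration 1, -0.10, -0.50 and -0.10 at 1/5 and 0.23, -1.22 and 0.47 at 1/25. At 24 h Abcc2 read 0.29, -1.12 and -0.44 at concentration 1, -1.66, -0.35 and -1.67 at 1/5 and -2.36, -0.19 and -1.49 at 1/25. Its lowest value, -2.36, lay on a low-signal array, as did -1.66, -1.67 and -1.22, although other arrays at 24 h read down to -1.49. The change was -0.64 ± 0.26 without the 4 arrays (adjusted p = 0.108), and it was called in 11 of 34 alternatives. Leaving out 1 array ended the call for 16 of the 20 arrays (adjusted p up to 0.109).

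Abcc3, the basolateral exporter of glucuronides, had probes that disagreed. The brighter probe, which stands for the gene, changed by -0.12 ± 0.43 (SE) at 24 h against 6 h (limma adjusted p = 0.844). Abcc3 read 1.11 and 1.82 on the untreated arrays, and after 6 h 1.77, 1.33 and 1.39 at concentration 1, 1.65, 1.96 and 1.18 at 1/5 and 1.56, 1.59 and 1.67 at 1/25. At 24 h Abcc3 read 1.44, 1.75 and 1.44 at concentration 1, 2.35, 2.16 and -1.80 at 1/5 and 2.14, 1.19 and 2.36 at 1/25. A single 24 h array, at -1.80, lay below all others of this probe, and it was the array with the lowest share of spots well above background. The dimmer Abcc3 probe read -4.45 and -3.67 on the untreated arrays, and after 6 h -3.59, -4.53 and -3.76 at concentration 1, -4.57, -4.06 and -4.80 at 1/5 and -4.67, -5.12 and -5.15 at 1/25. At 24 h the dimmer Abcc3 probe read -6.35, -6.15 and -5.18 at concentration 1, -5.12, -4.97 and -5.68 at 1/5 and -6.69, -5.56 and -5.69 at 1/25. The dimmer probe changed by -1.24 ± 0.24 (adjusted p = 0.00543, each probe tested on its own). It was well above background on 16 of 20 arrays, and at concentration 1 its 24 h values all lay below its 6 h values. The brighter probe lies at chr10:83001283-83001342 (minus strand), close to the other.

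Abcc1, which exports glutathione conjugates and leukotriene C4, did not pass at 24 h against 6 h, with a change of -0.55 ± 0.28 (SE, limma adjusted p = 0.144). Abcc1 read -0.18 and -0.33 on the untreated arrays, and after 6 h -0.08, -0.06 and 0.02 at concentration 1, -0.64, -1.29 and -0.03 at 1/5 and -0.50, -0.74 and -0.19 at 1/25. At 24 h Abcc1 read 0.01, -0.23 and -0.18 at concentration 1, -1.25, -0.84 and -3.29 at 1/5 and -1.22, -0.63 and -0.78 at 1/25. Its lowest array, at -3.29, was again the one of lowest signal. Its 6 h and 24 h ranges overlapped.

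Abcc4 changed by -0.76 ± 0.37 (SE, limma adjusted p = 0.133) and was well above background on 14 arrays. Abcc4 read -4.78 and -5.78 on the untreated arrays, and after 6 h -4.79, -4.80 and -4.67 at concentration 1, -5.42, -4.39 and -4.37 at 1/5 and -4.50, -6.73 and -5.07 at 1/25. At 24 h Abcc4 read -5.18, -5.47 and -4.81 at concentration 1, -6.49, -5.32 and -5.50 at 1/5 and -7.73, -4.79 and -6.27 at 1/25. The 24 h values spread from -7.73 to -4.79 and overlapped those at 6 h. Abcc5, another cyclic nucleotide exporter, changed by 0.56 ± 0.22 (adjusted p = 0.0750), and by 0.96 with median scaling (adjusted p = 0.0136). Abcc5 read -0.39 and -0.68 on the untreated arrays, and after 6 h -1.40, -0.77 and -0.76 at concentration 1, -0.89, -1.92 and -0.15 at 1/5 and -0.54, -0.56 and 0.16 at 1/25. At 24 h Abcc5 read 0.32, -0.18 and -0.35 at concentration 1, 0.04, -0.13 and -0.13 at 1/5 and -0.23, -0.65 and -0.44 at 1/25. Every 24 h array lay inside the range of the 6 h arrays except array 1 of concentration 1.

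Abcc10, an exporter of lipophilic anions, changed by -0.45 ± 0.31 (SE, limma adjusted p = 0.260). Abcc10 read -1.74 and -1.72 on the untreated arrays, and after 6 h -2.03, -2.15 and -2.35 at concentration 1, -3.13, -2.85 and -2.41 at 1/5 and -2.17, -2.24 and -1.25 at 1/25. At 24 h Abcc10 read -1.58, -2.83 and -2.01 at concentration 1, -3.23, -2.88 and -2.58 at 1/5 and -4.66, -1.85 and -3.03 at 1/25. The widest group was 1/25 at 24 h, from -4.66 to -1.85. Abcg2 changed by 0.06 ± 0.19 (adjusted p = 0.835). Abcg2 read -0.90 and -0.99 on the untreated arrays, and after 6 h -0.85, -0.87 and -1.11 at concentration 1, -0.67, -0.58 and -0.96 at 1/5 and -0.90, -0.25 and -0.98 at 1/25. At 24 h Abcg2 read -0.90, -0.47 and -0.69 at concentration 1, -0.30, -1.33 and -0.97 at 1/5 and -0.51, -1.26 and -0.25 at 1/25. Its 20 arrays lay between -1.33 and -0.25, and its 6 h and 24 h ranges overlapped. The ninth exporter, Abcb1a, was well above background on 0 of 2 untreated and 4 of 18 treated arrays and has no level here.

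**Figure D4:**
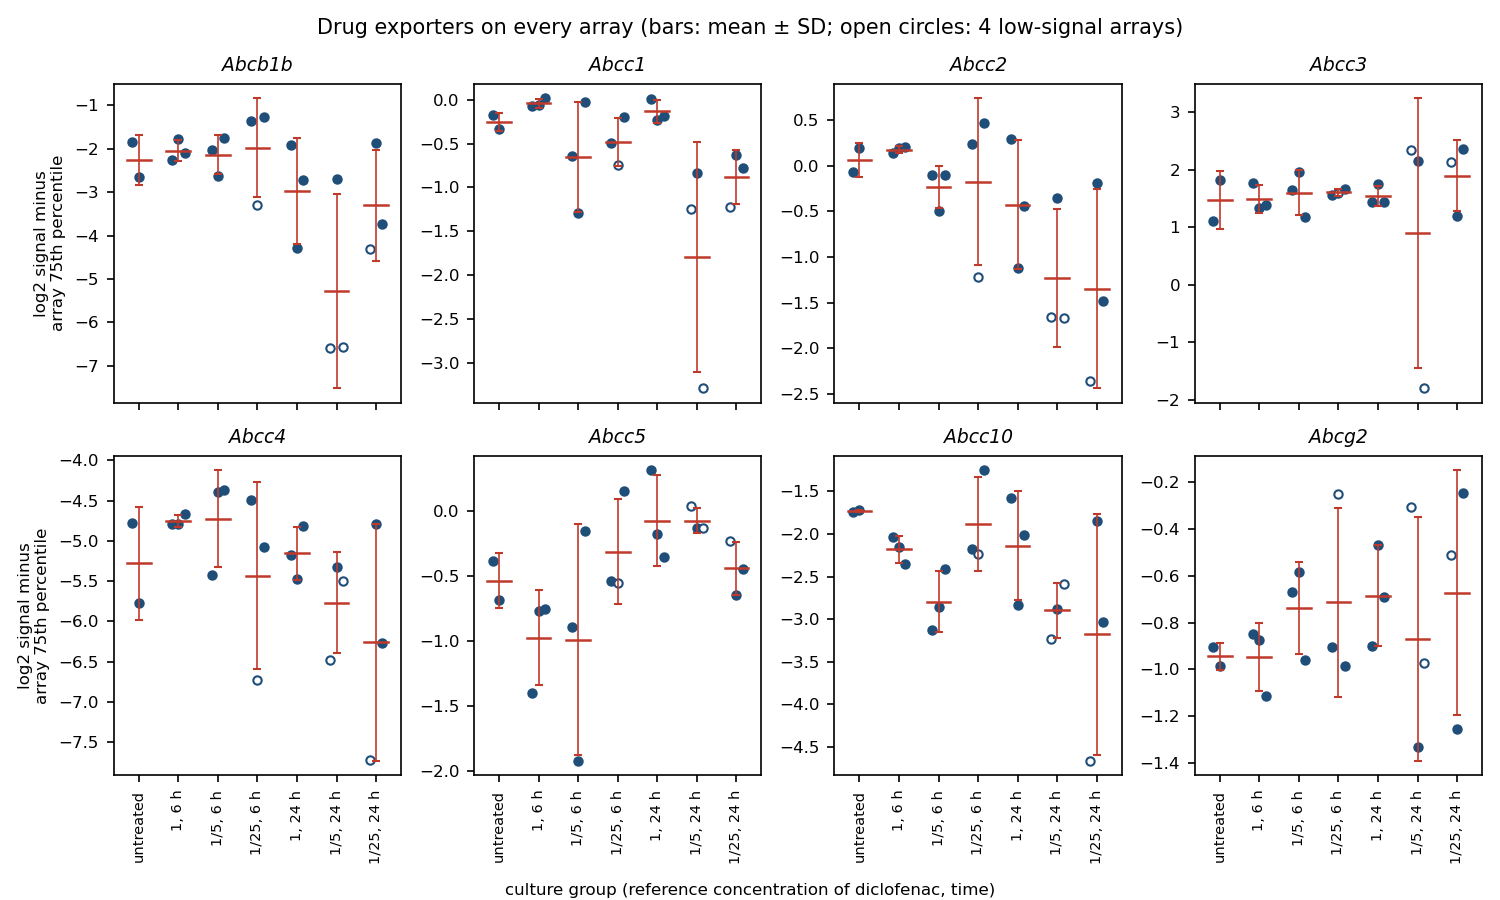
Normalised log2 signal of the 8 measured drug exporters (panels) on every array by group, with red lines and bars for the mean and SD; open circles are the 4 low-signal arrays. Abcb1b falls to -6.59 on open circles at 24 h, while Abcg2 stays between -1.33 and -0.25.

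Abcb8, which encodes a carrier linked to iron export from mitochondria, was lower at 24 h. Abcb8 read -4.89 and -4.66 on the untreated arrays, and after 6 h -4.36, -4.91 and -4.64 at concentration 1, -5.42, -5.27 and -4.36 at 1/5 and -5.39, -6.78 and -4.16 at 1/25. At 24 h Abcb8 read -6.15, -6.22 and -6.54 at concentration 1, -6.28, -5.46 and -5.78 at 1/5 and -7.90, -5.43 and -6.23 at 1/25. No 24 h array exceeded -5.43, whereas 8 of 9 arrays at 6 h did. The 24 h change without the low-signal arrays was -1.05 ± 0.26 (SE, limma adjusted p = 0.0219). The call ended with quantile normalization (-0.73, adjusted p = 0.0991), with normexp background correction (-0.72, 0.0517) and with array weights (-0.99, 0.0511). The probe was well above background on 14 of 20 arrays. At 6 h these were 3, 3 and 2 of 3 arrays at concentrations 1, 1/5 and 1/25, and at 24 h 2, 1 and 1 of 3. Many 24 h values are therefore near background, and the size of the change is uncertain. Leaving out 1 array ended the call for 9 of the 20 (adjusted p up to 0.0602).

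Abcf2 and Abcf3 encode cytoplasmic ATPases linked to translation. Abcf2 read -1.72 and -1.52 on the untreated arrays, and after 6 h -1.17, -1.54 and -1.40 at concentration 1, -2.60, -1.04 and -1.10 at 1/5 and -1.39, -3.04 and -2.16 at 1/25. At 24 h Abcf2 read -2.12, -2.72 and -3.34 at concentration 1, -3.33, -2.58 and -3.08 at 1/5 and -4.55, -2.12 and -3.54 at 1/25. No 24 h array of Abcf2 exceeded -2.12, whereas 6 of 9 arrays at 6 h did. Its change was -1.13 ± 0.34 (SE, limma adjusted p = 0.0427) without the low-signal arrays and -0.93 (adjusted p = 0.0260) with median scaling. Over its alternatives the change ran from -1.54 to -0.92 and the adjusted p from 0.00144 to 0.0428.

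Abcf3 read 1.29 and 0.15 on the untreated arrays, and after 6 h 1.19, 1.03 and 0.94 at concentration 1, 0.44, 0.77 and 0.92 at 1/5 and 0.43, -1.09 and 0.34 at 1/25. At 24 h Abcf3 read 0.07, -0.68 and -0.66 at concentration 1, -0.60, -0.24 and -0.10 at 1/5 and -1.02, 0.78 and -0.79 at 1/25. Array 2 of 1/25 for 6 h, a low-signal array, was lower than all others, and array 2 of 1/25 for 24 h was the only 24 h array above 0.07. Without the 4 arrays the Abcf3 change was -0.94 ± 0.28 (SE, limma adjusted p = 0.0430), and with median scaling it was -0.51 (adjusted p = 0.0929). The call ended without 1 array for 12 of the 20 (adjusted p up to 0.0772). The third F gene, Abcf1, stood at 0.28 ± 0.18 (adjusted p = 0.223).

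Abcc9 was lower at 24 h, and Abcc8 had no settled level. Abcc9 read -2.002 and -1.58 on the untreated arrays, and after 6 h -1.79, -2.02 and -1.96 at concentration 1, -1.93, -1.13 and -2.59 at 1/5 and -3.17, -3.04 and -2.16 at 1/25. At 24 h Abcc9 read -2.51, -3.23 and -2.38 at concentration 1, -4.47, -2.45 and -6.56 at 1/5 and -4.43, -2.92 and -3.90 at 1/25. Values under -4 were confined to 3 low-signal arrays at 24 h, of which the lowest was -6.56. The change was -0.70 ± 0.29 (SE, limma adjusted p = 0.113) without the 4 low-signal arrays and -0.993 with quantile normalization (0.0519), and array weights ended the call as well (-0.73, 0.0736). Without 1 array the call ended for 4 of the 20 (adjusted p up to 0.0628). Of the pore subunits that pair with these receptors, Kcnj8 changed by 0.75 ± 0.27 (adjusted p = 0.0567; 0.31 ± 0.24 without the low-signal arrays) and Kcnj11 by -0.22 ± 0.24 (adjusted p = 0.492).

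Abcc8 read -5.67 and -6.20 on the untreated arrays, and after 6 h -5.64, -3.89 and -4.57 at concentration 1, -6.19, -5.69 and -5.43 at 1/5 and -5.50, -5.76 and -5.18 at 1/25. At 24 h Abcc8 read -6.62, -6.29 and -5.97 at concentration 1, -7.86, -5.67 and -5.95 at 1/5 and -3.96, -5.78 and -5.78 at 1/25. The Abcc8 probe was well above background on 10 of 20 arrays and on neither untreated array. It passed the filter through 1 group alone, 1/25 for 24 h, where it read -3.96 on the low-signal array and -5.78 on each of the others; that group had to stand out, so no fold is given for it. For the 6 h groups, untreated values were raised to the lowest signal called well above background on their array. The ratios of means were then 2.29 at concentration 1, 1.09 at 1/5 and 1.34 at 1/25, with none passing the test. At 1/5 and 1/25 the arrays overlapped the untreated ones, and at 1/5 1 of 3 was well above background. These ratios are therefore no firm lower limits. The means of concentrations 1 and 1/5 at 24 h, -6.29 and -6.49, lay below the untreated mean of -5.94 and gave no such ratio. At 24 h against 6 h it changed by -0.67 ± 0.34 (adjusted p = 0.140).

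Abca2 and Abcb4 were the members higher at 24 h. Abca2 read -2.47 and -2.65 on the untreated arrays, and after 6 h -2.19, -2.17 and -2.17 at concentration 1, -2.88, -3.73 and -2.61 at 1/5 and -2.16, -1.82 and -2.35 at 1/25. At 24 h Abca2 read -2.15, -1.22 and -1.84 at concentration 1, -0.82, -2.15 and -2.05 at 1/5 and -1.28, -2.29 and -0.96 at 1/25. Its lowest values, -3.73 and -2.88, were those of 2 arrays of 1/5 at 6 h, below both untreated arrays. Without the low-signal arrays the change was 0.66 ± 0.26 (SE, limma adjusted p = 0.0990), and the call ended without 1 array for 10 of the 20 (adjusted p up to 0.0756). Abcb4 encodes the phosphatidylcholine flippase of bile canaliculi. Abcb4 read 0.36 and 0.13 on the untreated arrays, and after 6 h 0.27, 0.03 and 0.35 at concentration 1, 0.21, 0.41 and 0.26 at 1/5 and -0.46, -0.41 and 0.31 at 1/25. At 24 h Abcb4 read 0.33, 0.65 and 0.41 at concentration 1, 0.78, 0.65 and 1.63 at 1/5 and 1.08, 0.29 and 0.65 at 1/25. The 24 h range of 0.29 to 1.63 overlapped the 6 h range of -0.46 to 0.41, and the highest array was the one of lowest signal. The Abcb4 change was 0.38 ± 0.16 (adjusted p = 0.119) without the 4 arrays and 1.01 (0.0126) with median scaling, and the call ended without 1 array for 10 of the 20 (adjusted p up to 0.0746).

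**Figure D5:**
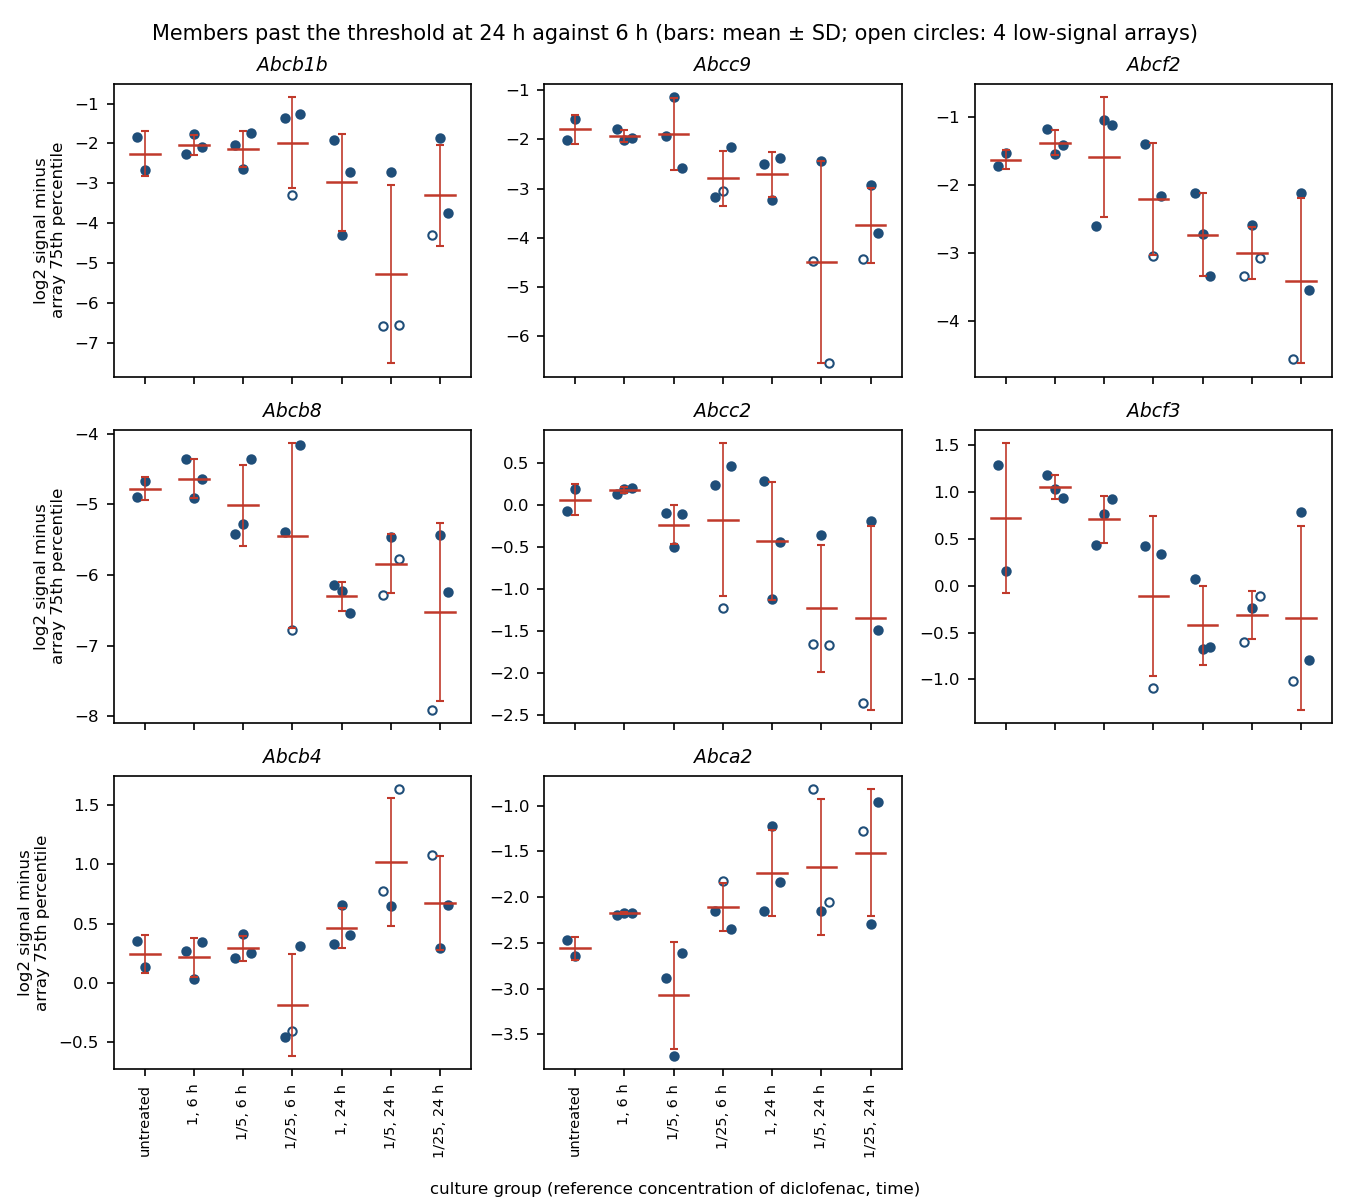
Normalised log2 signal of 8 of the 9 ABC genes past adjusted p 0.05 at 24 h against 6 h (panels, from the lowest change to the highest) on every array by group, with red lines and bars for the mean and SD; open circles are the 4 low-signal arrays. Abcf2 at 24 h does not exceed -2.12, while 6 of 9 arrays at 6 h do.

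The cholesterol exporters Abca1 and Abcg1, both targets of the liver X receptors, did not pass in any comparison of the main setting. Abca1 read -4.78 and -5.10 on the untreated arrays, and after 6 h -4.47, -4.76 and -4.73 at concentration 1, -4.73, -5.20 and -4.13 at 1/5 and -3.82, -5.21 and -4.45 at 1/25. At 24 h Abca1 read -5.22, -4.30 and -4.82 at concentration 1, -4.90, -4.27 and -5.25 at 1/5 and -4.73, -4.61 and -4.58 at 1/25. Abca1 changed by -0.13 ± 0.22 (SE) at 24 h against 6 h, with the sign turned to 0.27 by median scaling and in the deposited ratios and to 0.47 by quantile normalization (limma adjusted p of 0.1001 or more), and by 0.26 ± 0.35 against untreated cultures over all treated groups. Abcg1 read 0.22 and -0.64 on the untreated arrays, and after 6 h -0.37, -0.33 and -0.10 at concentration 1, -0.03, -0.32 and 0.27 at 1/5 and 0.08, 0.24 and 0.01 at 1/25. At 24 h Abcg1 read -0.19, 0.32 and 0.20 at concentration 1, 0.36, -0.50 and 0.11 at 1/5 and 0.74, 0.38 and 0.72 at 1/25. For Abcg1 the changes were 0.30 ± 0.18 and 0.30 ± 0.28. At 24 h against 6 h Abcg1 passed, higher, with median scaling (0.70, limma adjusted p = 0.0348) and in the deposited ratios (0.70, 0.0342), and without the low-signal arrays its change was 0.14 ± 0.18 (0.602). Over the 3 concentrations, the 6 h and 24 h ranges of both genes overlapped. Some single groups lay apart: Abcg1 at 1/25 for 24 h lay above all untreated and 6 h arrays. Abca1 at concentration 1 for 6 h lay just above both untreated arrays. Each gap rests on a group of 3 arrays, and the share of all genes with such a gap is not given here. Neither gap is therefore a result about these genes.

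At single concentrations, 24 h against 6 h gave 0 members past the threshold at 1, 1/5 and 1/25, beside 0.233%, 0.0984% and 0% of all genes. Unadjusted p was under 0.05 for 6, 14 and 5 members, or 13.6%, 31.8% and 11.4% of them, beside 13.8%, 33% and 9.91% of all genes. Between concentrations, 0 of 44 members passed in any of 6 comparisons. At 6 h, 0.00656%, 0% and 0.0197% of all genes passed for 1 against 1/5, 1/5 against 1/25 and 1 against 1/25, and unadjusted p was under 0.05 for 1, 1 and 1 members (2.8%, 2.78% and 4.79% of all genes). At 24 h the shares of all genes were 0%, 0.00328% and 0.00328%, with 9, 4 and 2 members at an unadjusted p under 0.05 (21.5%, 6.67% and 5% of all genes).

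For the interaction of concentration and time, 1 against 1/25, 0 members passed (0% of all genes) and 3 had an unadjusted p under 0.05 (2.56% of all genes). Over the 7 groups together the moderated F test passed 0 members and 0.692% of all genes, with 11 members at an unadjusted p under 0.05 (21.5% of all genes). Among the 4 members with the smallest p in the F test were Abcc9 (limma adjusted p = 0.174), Abcf2 (0.185) and Abcb1b (0.197).

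Genes that work with the family were counted at 24 h against 6 h in the same fit. Over 9 lists 18 of 87 measured genes passed, or 20.7%, beside 21% of all genes, so the share is near the background. Of 17 measured regulators of ABC genes, 1 was higher, Nr3c1, the glucocorticoid receptor, at 1.02 ± 0.28 (SE, limma adjusted p = 0.0230), and 2 lower, Keap1, the inhibitor of NRF2, at -1.88 ± 0.54 (0.0270) and Srebf2, the sterol-sensing transcription factor, at -1.20 ± 0.37 (0.0347). Of 14 uptake transporters for drugs and anions, 0 were higher and 1 lower, the carnitine carrier Slc22a5 at -1.08 ± 0.35 (0.0412). Of 16 conjugating enzymes, Gsta1, a glutathione transferase, was higher at 1.59 ± 0.37 (0.0122) and Gsr, glutathione reductase, lower at -1.62 ± 0.40 (0.0160). Of 13 cholesterol efflux and lipoprotein partners 3 were lower, Scarb1, Npc1 and Lrp1, and 0 higher. Tap1, a peptide transporter of the family outside the rule, was lower at -1.77 ± 0.46 (0.0186), as were 2 of 6 partners, Pdia3 at -2.01 ± 0.58 (0.0274) and Tapbp at -1.08 ± 0.32 (0.0299). Of 7 peroxisome partners 1 was higher, Hsd17b4 at 1.11 ± 0.24 (0.0104), and 2 lower, Pex5 and Pex14. Among 9 partners of Abce1 and the Abcf genes 3 were lower, with Gcn1, the ribosome sensor, at -1.53 ± 0.32 (0.00881), and 0 higher. Leaving out the 4 low-signal arrays leaves 1 array at 1/5 for 24 h. In that fit Nr3c1 (0.74 ± 0.23), Scarb1 (-0.92 ± 0.33), Lrp1 (-0.90 ± 0.28), Tapbp (-0.63 ± 0.26) and Pex14 (-0.99 ± 0.50) no longer passed. Other genes of the lists passed there and not in the main fit, among them Nr1h2, Slc22a4, Slc15a1, Slco2a1, Gstm1, Gstp1 and Psmb9. The share of 20.7% is therefore that of the main fit alone. Pdia3 stood at -1.08 ± 0.31 (0.0403) and Hsd17b4 at 0.71 ± 0.15 (0.0126) in that fit, both still past the threshold and over 1.5 times smaller. Against untreated cultures 0 genes of these 9 lists passed in any of the 7 comparisons.

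Of 62 measured cell type markers in 8 lists 17 passed at 24 h against 6 h, or 27.4%, beside 21% of all genes, and their part in the ABC results was not tested. The counts higher and lower at 24 h were 1 and 1 of 12 for cardiomyocytes, 1 and 1 of 9 for fibroblasts, 2 and 1 of 8 for endothelium and 0 and 2 of 8 for smooth muscle and pericytes. They were 2 and 1 of 10 for macrophages and leukocytes, 0 and 2 of 4 for erythroid cells, 0 and 3 of 7 for epithelium and mesothelium and 0 and 0 of 4 for hepatocytes. Summed over the cardiomyocyte list, the log2 level relative to the 75th percentile was 4.41 to 4.69 on untreated arrays, 4.31 to 4.79 at 6 h and 4.10 to 6.70 at 24 h. The fibroblast sum was 3.95 to 4.16, 3.76 to 4.13 and 3.48 to 6.37, and that of smooth muscle and pericytes 3.46 to 3.69, 3.30 to 3.71 and 3.03 to 4.33. For endothelium the sums were 1.46 to 1.57, 1.02 to 2.06 and 1.46 to 3.43, and for macrophages and leukocytes 2.75 to 2.82, 2.20 to 3.07 and 1.65 to 2.88. Erythroid sums were 0.02 to 0.16, -0.50 to 0.35 and -1.39 to 0.46. The highest 24 h sums of cardiomyocytes, fibroblasts, endothelium, smooth muscle and pericytes, and erythroid cells all lay on array 3 of 1/5, the array of lowest signal. Without it the highest were 5.16, 4.44, 2.72, 3.87 and -0.045. The lowest macrophage and leukocyte sum at 24 h lay on the same array, and without the 4 low-signal arrays it was 2.24.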

How the data were processed

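RNA was read on 20 Agilent rat arrays of 1 colour; the titles of the samples gave the 7 groups. Per the file headers, Feature Extraction 9.5.3.1 produced the deposited intensity values, which are subtracted for background and not scaled between arrays, with positions on build rn3. The deposited ratio table was checked against them: it is the processed signal over the array median and then over the mean of the untreated arrays (Pearson r of 0.9983 to 0.9997 after taking logs), and it served as an alternative. How the authors reached either table beyond this is not given in the sources used here.

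Each value is log2 of the processed signal less the 75th percentile of its array, control spots aside. Outlier and non-uniform spots (120 to 271 of 43379) were left out, saturated spots were kept, and spots of a probe were averaged. Probes were kept if all arrays of some group had them well above background, and a gene was represented by its brightest kept probe. RefSeq names updated symbols: 10735 probes by accession, 5571 by symbol and 3729 by synonym, and 20977 kept their file's name; Abcb1 became Abcb1b and Abcg3 became Abcg3l1.

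The test was limma 3.58.1 (R 4.3.3) with a mean per group over 20 arrays, 18 contrasts and an F test, two-sided, Benjamini-Hochberg adjusted over all genes, threshold 0.05. The fit was tested on simulated data. Where no array of a reference group was well above background, its values were raised to each array's lowest signal called so. A ratio of means is then given. The number of arrays limits the precision. Python 3.11.15, pandas 2.3.3, numpy 2.4.6 and matplotlib 3.10.9 were used. Named genes were the measured drug exporters, members past the threshold, the 4 with the smallest F test p, Abca1, Abcg1, Abcc8 and Abcc9, and the 2 highest and 2 lowest changes in 8 comparisons. The dimmer Abcc3 probe was chosen after its values were seen. Members and lists were chosen with earlier results of these data known. The planned description of protein motifs was not made, as no protein table was used here. Alternatives covered scaling, background correction, the filter, probe choice, slide, weights, the replicate block and arrays left out. RefSeq promoters matched too few members to be used. Values of some members are not reported here; counts over the family include them.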

Additional observations from a re-analysis of the deposited data

Results flagged for a closer look

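Member probes outside the main measurement gave signal on treated arrays and on neither of the 2 untreated arrays in 3 cases. The Abcb1a probe and the other Abca4 probe were each well above background on 4 of 18 treated arrays, and the other Abcc4 probe on 2 of 18. All 3 missed the filter because no group had every array well above background, so they entered no comparison. With no filter on dim probes, Abcb1a was among the 9 members that passed at 24 h against 6 h, beside 16.7% of all genes. Abcb1a was higher at 24 h there, and its highest reading lay on array 3 of 1/5 for 24 h, the array of lowest signal. Groups of 2 or 3 arrays were too small for a check of single outlying arrays, and no member's interaction of concentration and time passed the threshold with the main setting.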

How the results depend on the processing

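At 24 h against 6 h 9 members passed, beside 21% of all genes. With median scaling 15 passed (36.3% of all genes), in the deposited ratios 16 (36.4%) and with slide as a random block 20 (48.7%). Among genes well above background on all arrays, 5 of 33 members passed, beside 20% of all genes there. Leaving out 1 array gave 2 to 16, beside 7.5% to 44.1% of all genes. For the other comparisons in this paragraph the share of all genes is not given, so those counts are no result about the family. In comparisons where 0 passed, slide as a random block (consensus correlation -0.168) called 14 members for 1/5 at 24 h against untreated, 21 for 24 h against 6 h at 1/5, 13 for 1 against 1/5 at 24 h and 18 in the F test. Array weights called 1 for 1/5 at 6 h, 9 for 1 at 24 h and 30 for 1/25 at 24 h against untreated, 26 and 32 for 24 h against 6 h at 1 and 1/25, 8, 11 and 1 between concentrations at 6 h, 41 for 1 against 1/25 at 24 h, 22 for the interaction and 37 in the F test; the cause was not tested. Fitting the compared groups alone, or leaving out the low-signal arrays, called 3 each for 24 h against 6 h at concentration 1. Without 1 array the counts ran from 0 to 11 for 1/5 and 0 to 2 for 1/25 at 24 h against untreated, 0 to 12 and 0 to 1 for 24 h against 6 h at 1/5 and 1/25, 0 to 10 for 1 against 1/5 at 24 h and 0 to 6 in the F test; the highest values, 11, 12, 10 and 6, arose without array 2 of 1/5 at 24 h, the 2 without array 2 of 1/25 at 24 h and the 0 to 1 range without array 3 of 1/5 at 24 h. Over all counts and alternatives, 604 counts stayed within 1.5 times the main count, which for a count of 0 means 0, and 43 did not; no named gene's change past the threshold reversed.

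Replicate numbers gave no pairing: same-numbered arrays' deviations from their group means correlated with a median of -0.04 (57 pairs, -0.77 to 0.64, 12 over 0.1) against 0.04 for other numbers. With the replicate block 7 members passed at 24 h against 6 h, without Abcc2 (adjusted p = 0.0691) and Abcf3 (0.0504), and 0 in the other 17 comparisons; the F test was not run with it. Slide as a fixed block could be fitted for 4 comparisons, concentrations 1 and 1/5 against untreated and against each other at 6 h and 1/5 against 1/25 at 24 h, with 0 members called. Changes in probes near background, such as those of Abcc8, Abcb10, Abcc4 and Abcb8, are limited by signal over background.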

Other observations

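The probe of Abcc2 was printed many times on each array, and 7 to 10 of its spots were used per array. This gives a measure of technical spread within an array. The SD between its spots had a median of 0.0860 log2 units over the 20 arrays and ran from 0.0241 to 0.237. The SD between arrays was 0.51 over the 9 arrays at 6 h and 0.87 over the 9 at 24 h, each set holding the 3 concentrations.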
